A study of Mus musculus with 6 samples.

Results

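The pancreatic chymotrypsins and elastases, together with the tissue kallikrein Klk1, were followed over 3 genotypes of newborn mouse pancreas. Their 7 genes were Ctrb1, Ctrl, Ctrc, Cela1, Cela2a, Cela3b and Klk1, chosen by symbol from the names printed beside the probes, with older symbols counted (Ela for Cela). They are 7 of 23841 named genes on the array and carry 8 of its 55681 probes, Ctrc having 2 probes. All 8 probes were well above background on all 6 arrays, so all 7 genes were among the 14024 genes tested. Klk1 is a kallikrein and no chymotrypsin or elastase, and is described last.

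Total RNA of whole pancreas, taken from C57BL/6N mice on postnatal day 0.5, was read on 2 single-colour arrays per genotype. The genotypes were Spink3-/-, Spink3-/-XKI/+ and Spink3+/+, the last being wild type; both other genotypes lack Spink3, the gene of a trypsin inhibitor that acinar cells secrete. By the study's account, acinar cells of Spink3-/- pancreas all die without apoptosis and with autophagy, and in Spink3-/-XKI/+ pancreas a share of them is spared. That account is no result of these arrays. On postnatal day 0.5 all 10 acinar markers were above background on both arrays of every genotype. The labels do not say what XKI stands for, or whether the 2 samples of a genotype are different animals, so the p-values rest on a spread between samples that may be no more than technical.

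Acinar cells make these proteases as inactive zymogens, store them in granules and release them to the gut, where trypsin cuts them into active enzymes. Chymotrypsins cut proteins after large hydrophobic residues and elastases after small ones. In acinar cells the genes are switched on together by the PTF1 complex, in which Ptf1a and an E protein hold an E-box and Rbpjl or Rbpj holds a neighbouring TGGGAA box, and by the nuclear receptor Nr5a2.

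All values are log2 levels: the scanner's processed signal was divided by the 75th percentile of its own array, and a level of 0 stands for that percentile. A level belongs to its probe, and amounts of RNA were not compared between genes. The arrays had 42.4% to 50.8% of spots well above background and no saturated spot, and correlated at r = 0.954 to 0.967 over all probes. Spink3 checked which arrays were labelled Spink3+/+, and could not check which of the other arrays carry XKI. Its levels were 3.25 and 2.95 in Spink3-/-, 2.64 and 2.34 in Spink3-/-XKI/+, and 9.84 and 10.26 in Spink3+/+ pancreas. Acinar markers (10 of 10 above background on every array) had summed signals of 8851 and 11668 times the 75th percentile in Spink3-/-, 10161 and 9833 in Spink3-/-XKI/+, and 9452 and 11535 in Spink3+/+ pancreas. Their mean log2 level was 7.17 and 7.35 in Spink3-/-, 7.71 and 7.47 in Spink3-/-XKI/+, and 7.54 and 7.52 in Spink3+/+ pancreas, so that on this measure both Spink3-/- arrays were below the other 4. This mean gives equal weight to the dim Pnlip. Its levels were -1.95 and -1.73 in Spink3-/-, 0.96 and 0.36 in Spink3-/-XKI/+, and -0.07 and -0.79 in Spink3+/+. Against Spink3+/+, 2 of 10 markers were lower in Spink3-/- without overlap, where 16.6% of all tested genes were. A positive difference was seen for 3 of 10. None of the 10 passed the test, and their part in the values of the proteases was not tested. In whole tissue, fewer cells of a type and less RNA per cell cannot be told apart.

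Positions of the genes are those of their probes in mm9. Ctrb1 (chr8:114210454-114210513) and Ctrl (chr8:108456495-108456554) share chromosome 8, while Ctrc, Cela2a and Cela3b share chromosome 4. The Ctrc probes lie at chr4:141400953-141401012 and chr4:141394154-141394213, beside the Cela2a probe, which spans chr4:141377348-141377647 across an intron. Cela3b was read at chr4:136979192-136979251, Cela1 at chr15:100515014-100515073, and Klk1 at chr7:51484170-51484325, again across an intron. All are on the minus strand except Klk1, which is on the plus strand. RefSeq's GRCm38.p6 table, made from the C57BL/6J strain, lists Ctrc as a transcribed pseudogene and the other 6 as protein coding; the reading frame of Ctrc is known to be broken in C57BL/6 mice.

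The 60-base probes below are those on which the results for Ctrl, Cela1 and Cela2a rest, written 5′ to 3′ as the array's design gives them, with no capitals.
Ctrl: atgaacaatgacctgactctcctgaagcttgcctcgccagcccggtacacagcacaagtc
Cela1: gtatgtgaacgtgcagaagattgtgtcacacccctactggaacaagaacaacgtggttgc
Cela2a: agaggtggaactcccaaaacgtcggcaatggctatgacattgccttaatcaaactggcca

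Among all probes of the array, only 2 pairs held a member's probe with 36 or more matching bases or a run of 20 or more. Both pairs are shown because signals of such like probes may not be those of 1 gene. The Cela3b probe matched a probe of its neighbour Cela3a (chr4:136959734-136959793, minus strand) at 52 of 60 bases, with an unbroken run of 21. In the second pair the Klk1 probe matched that of Klk1b4 (chr7:51466302-51466457, plus strand) at 48 of 60 bases, with a run of 28. Capitals mark bases that differ or that lie outside the overlap.
Cela3b: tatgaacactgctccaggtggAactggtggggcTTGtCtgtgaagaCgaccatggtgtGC
Cela3a: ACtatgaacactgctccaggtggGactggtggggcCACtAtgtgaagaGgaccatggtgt
Klk1: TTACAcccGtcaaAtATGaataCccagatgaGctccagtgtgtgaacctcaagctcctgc
Klk1b4: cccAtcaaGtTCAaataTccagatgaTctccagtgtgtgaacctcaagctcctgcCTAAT

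No gene of the 7 passed the test in any comparison (limma, adjusted p under 0.05 over 14024 genes). In Spink3-/- against Spink3+/+ pancreas 5 genes of the array did, 0.0357% of those tested (0.0214% higher and 0.0143% lower). In Spink3-/-XKI/+ against Spink3+/+ it was 1 gene, 0.00713%, and in Spink3-/- against Spink3-/-XKI/+ it was also 1 gene, 0.00713%. At an unadjusted p under 0.05 the array had 706, 1066 and 1017 genes in these comparisons. With 2 arrays a genotype the intervals were wide: the narrowest of the 95% intervals, that of Cela2a, ran from -0.72 to 0.29 in Spink3-/- against Spink3+/+.

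The chymotrypsin-like protease Ctrl had the lowest unadjusted p of the 7 genes in Spink3-/- against Spink3+/+ pancreas. Its levels were 6.12 and 6.08 in Spink3-/-, 6.96 and 6.36 in Spink3-/-XKI/+, and 6.57 and 7.32 in Spink3+/+ pancreas. Both Spink3-/- arrays lay below all 4 others, and the Spink3-/-XKI/+ arrays overlapped with those of Spink3+/+. The difference was -0.84 (SE 0.32, 95% interval -1.61 to -0.07), a signal 1.79-fold lower in Spink3-/-. By limma its adjusted p was 0.988, with 0.0365 before adjustment. Against Spink3-/-XKI/+ the Spink3-/- difference was -0.56 (SE 0.32, interval -1.33 to 0.21). In Spink3-/-XKI/+ against Spink3+/+ it was -0.28 (interval -1.05 to 0.49).

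Ctrb1, the main chymotrypsinogen of the mouse, had nearly the same mean in all genotypes. Levels of Ctrb1 were 11.01 and 11.51 in Spink3-/-, 11.18 and 11.39 in Spink3-/-XKI/+, and 11.16 and 11.22 in Spink3+/+ pancreas. The Spink3-/- arrays lay on both sides of all others. Differences were 0.07 (SE 0.22, interval -0.46 to 0.60) in Spink3-/- and 0.09 (SE 0.22, interval -0.44 to 0.62) in Spink3-/-XKI/+, each against Spink3+/+, and -0.02 between the Spink3-deficient genotypes.

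Chymotrypsin C, which in humans promotes the breakdown of trypsin, was read by probes that start at bases 224 and 899 of its transcript. The probe at base 899, near the 3′ end, gave levels of 2.82 and 4.50 in Spink3-/-, 3.92 and 3.84 in Spink3-/-XKI/+, and 4.13 and 4.25 in Spink3+/+ pancreas. Replicate 1 of Spink3-/- was the lowest of the 6 arrays and replicate 2 the highest. Their spread left a difference of -0.53 against Spink3+/+ with an SE of 0.51 (interval -1.77 to 0.70), and without replicate 1 the difference turned to 0.31. The Spink3-/-XKI/+ arrays were both below the Spink3+/+ arrays, by -0.31 (interval -1.54 to 0.93). With the row of the slide as a block that difference was -1.99. Only Spink3-/- has arrays in both rows, so the row effect was estimated from its 2 arrays alone. The value of -1.99 thus carries their spread, and row and genotype cannot be told apart in this comparison.

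The dimmer Ctrc probe at base 224 gave -1.43 and -0.62 in Spink3-/-, -0.72 and -0.95 in Spink3-/-XKI/+, and -0.64 and -0.41 in Spink3+/+ pancreas. It had the same lowest array as the other Ctrc probe. Fitted on its own, it differed by -0.50 (SE 0.30) in Spink3-/- and by -0.31 (SE 0.30) in Spink3-/-XKI/+, each against Spink3+/+, beside -0.53 and -0.31 for the probe at base 899. On the log2 scale the signal at base 899 over that at base 224 was 4.25 and 5.12 in Spink3-/-, 4.64 and 4.80 in Spink3-/-XKI/+, and 4.77 and 4.66 in Spink3+/+ pancreas. The ratio therefore differed most between the 2 Spink3-/- arrays, which lay on both sides of the other 4.

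**Figure D1:**
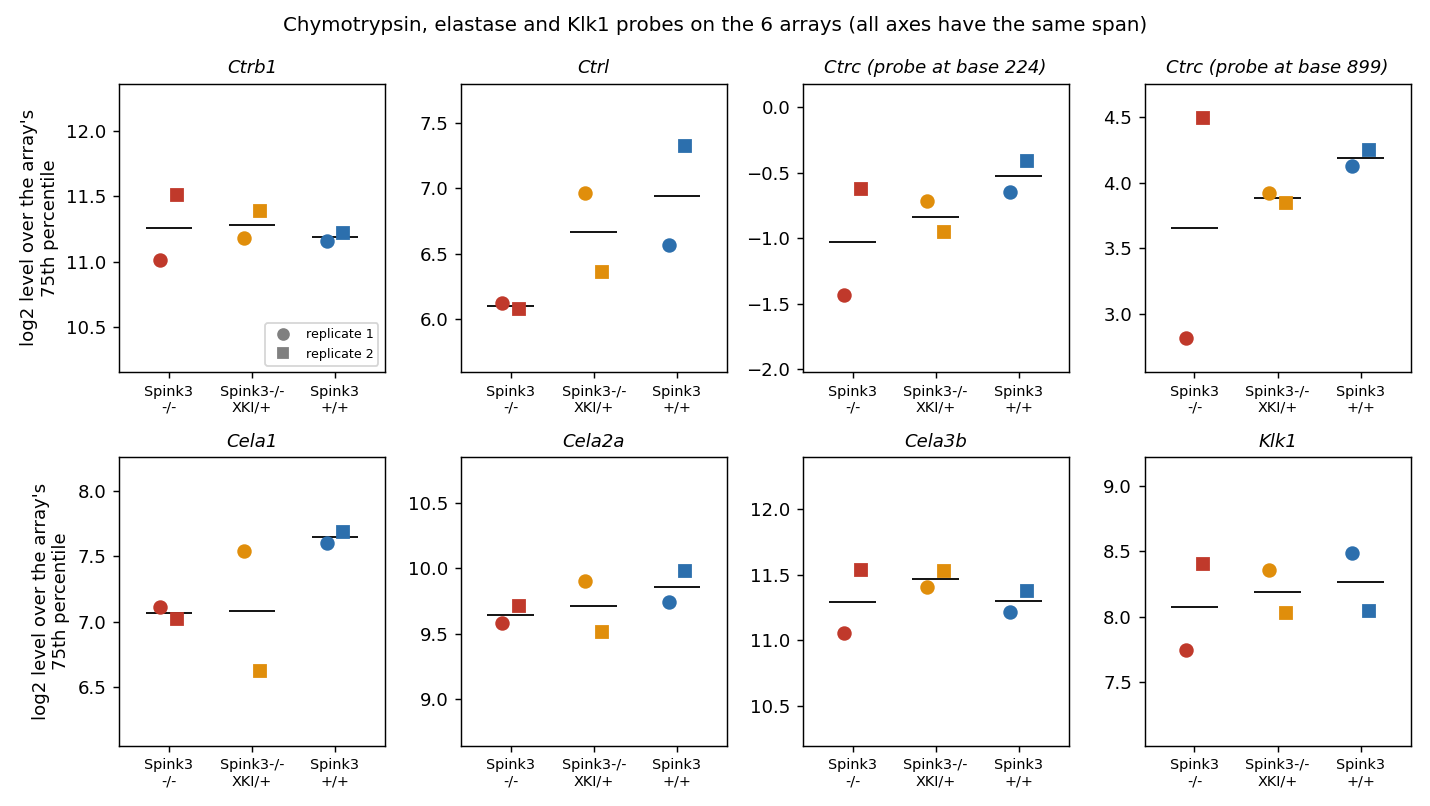
The log2 level (y axis, signal over the 75th percentile of its array, with panels of equal span) is drawn for each of the 8 probes by genotype, with circles for replicate 1, squares for replicate 2 and a line at the mean of the 2 arrays. For Ctrl both Spink3-/- points (6.12 and 6.08) lie below the other 4, whereas the Spink3-/- points of Ctrc at base 899 (2.82 and 4.50) lie on both sides of the others.

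Cela1, the first of the elastases, was lower than wild type on every Spink3-deficient array. Its levels were 7.11 and 7.02 in Spink3-/-, 7.54 and 6.62 in Spink3-/-XKI/+, and 7.60 and 7.69 in Spink3+/+ pancreas. The difference from Spink3+/+ was -0.58 (SE 0.31, interval -1.33 to 0.17, adjusted p = 0.988 by limma) in Spink3-/-, a 1.49-fold lower signal. In Spink3-/-XKI/+ it was -0.56 (SE 0.31, interval -1.31 to 0.19, adjusted p = 0.738 by limma). The 2 Spink3-deficient genotypes differed by -0.02 (interval -0.77 to 0.73), and replicates 1 and 2 of Spink3-/-XKI/+ lay farther apart than any other pair of replicates of Cela1. Without replicate 2 of Spink3-/-XKI/+ its difference from Spink3+/+ was -0.10, and without replicate 1 it was -1.02.

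Cela2a, the elastase 2 gene, gave 9.58 and 9.71 in Spink3-/-, 9.91 and 9.51 in Spink3-/-XKI/+, and 9.74 and 9.98 in Spink3+/+ pancreas. The Spink3-/- arrays were both below the Spink3+/+ arrays by a narrow gap, and Spink3-/-XKI/+ overlapped with both. The differences from Spink3+/+ were -0.22 (SE 0.21, interval -0.72 to 0.29) in Spink3-/- and -0.15 (SE 0.21, interval -0.65 to 0.35) in Spink3-/-XKI/+.

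Cela3b, an elastase 3 gene, gave 11.06 and 11.53 in Spink3-/-, 11.41 and 11.53 in Spink3-/-XKI/+, and 11.22 and 11.38 in Spink3+/+ pancreas. The Spink3-/- arrays spanned those of Spink3+/+, and the Spink3-/-XKI/+ arrays lay just above them. The difference from Spink3+/+ was -0.0013 (SE 0.21, interval -0.52 to 0.52) in Spink3-/- and 0.17 (SE 0.21, interval -0.35 to 0.69) in Spink3-/-XKI/+. Its near copy Cela3a, which is no member, had differences of -0.026 and 0.12 in the same order on the probe printed above, and of 0.02 and 0.06 on its brighter probe. Whether the Cela3b probe also reads Cela3a RNA was not tested.

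**Figure D2:**
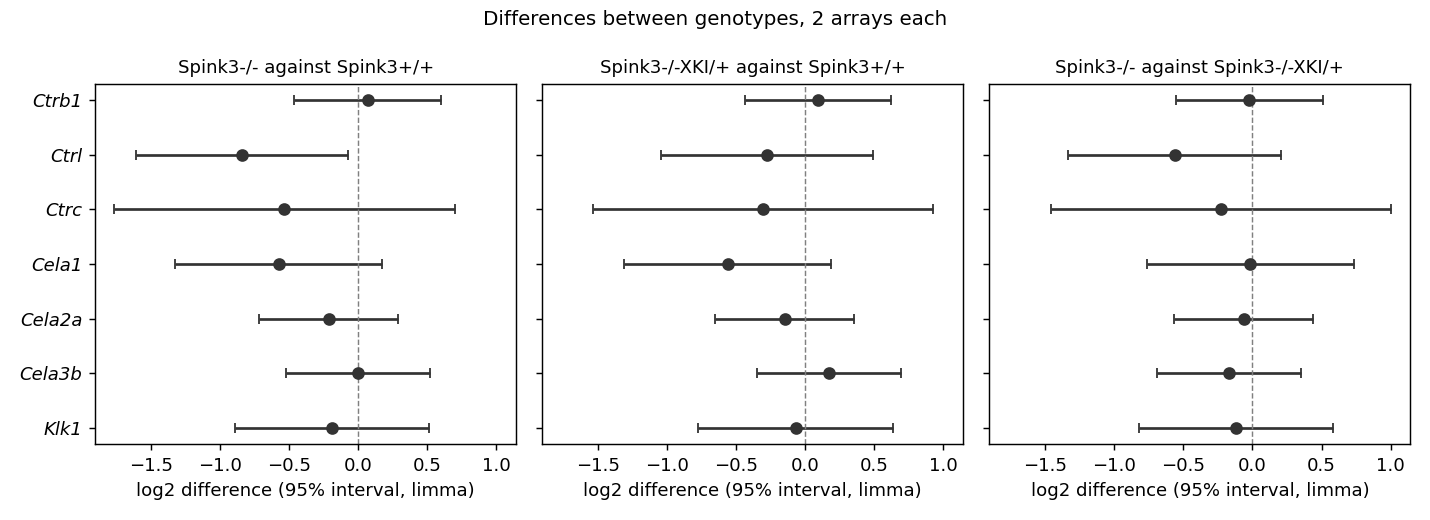
Points are log2 differences between genotypes from limma with 2 arrays each, bars are 95% intervals, and the 3 panels are the 3 comparisons on a shared x axis. Every interval includes 0 except that of Ctrl in Spink3-/- against Spink3+/+ (-1.61 to -0.07), whose adjusted p was 0.988.

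As a group the 7 genes had a median difference of -0.22 in Spink3-/- against Spink3+/+, where the median of all tested genes was -0.0062. Of the 7 genes 6 were negative, Cela3b by -0.0013 alone, as were 51.0% of all tested genes. This median was 0.14 without replicate 1 of Spink3-/- and 0.07 when scaled to other digestive enzymes. The value of -0.22 was the difference of Cela2a (SE 0.21). On every array the median level of the 7 genes was that of Klk1, with an SD between replicates of 0.35. That SD is therefore the spread of Klk1 and not that of the median difference. Groups did not overlap for 3 of 7, all lower in Spink3-/- (Ctrl, Cela1 and Cela2a), where 16.6% of all tested genes were lower without overlap and 16.1% higher. In Spink3-/-XKI/+ against Spink3+/+ the median was -0.15 beside 0.04 for all genes, and it was 0.02 without replicate 2 of Spink3-/-XKI/+ and -0.40 with the row of the slide as a block. That row cannot be told apart from genotype in this comparison. There Ctrc and Cela1 were lower without overlap, as were 16.2% of all genes, and Cela3b was higher, as were 25.9%. In Spink3-/- against Spink3-/-XKI/+ the median was -0.12 beside -0.04 for all genes, and it was -0.41 without replicate 2 of Spink3-/- and 0.16 when scaled to other digestive enzymes. Ctrl alone did not overlap, being lower, as were 21.5% of all genes (13.1% were higher). The first 2 comparisons share the Spink3+/+ arrays, and the first and the last share the Spink3-/- arrays.

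The brightest probes moved with the scaling. Before scaling, the signal of Ctrb1 lay between 304910 and 328264 on all 6 arrays, a ratio of 1.08 from highest to lowest, and that of Cela3b between 329695 and 384352, a ratio of 1.17. The scanner software gave the signals of Ctrb1 and Cela3b an error of 10% on every array. The highest error of a member's signal, 13.2%, was that of the dim Ctrc probe at base 224. The 75th percentile that was subtracted had a ratio of 1.40 over the same arrays, with 155 and 111 in Spink3-/-, 142 and 118 in Spink3-/-XKI/+, and 138 and 128 in Spink3+/+. Scaling thus widened the range of Ctrb1 to 0.49 from 0.11 log2 units, and that of Cela3b to 0.48 from 0.22. Over the 6 arrays the scaled level of Ctrb1 followed the percentile's inverse at r = 0.979, and that of Cela3b at r = 0.890, where the percentile is part of the level.

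Cela3b and Ctrb1 ranked 2 and 6 by mean signal among 24820 probes above background. Their highest signals reached 49.3% and 42.1% of the value at which the scanner saturates, and no spot was flagged as saturated. The 20 brightest probes had a median SD over arrays of 0.077 before scaling, against 0.14 for the next 80 probes, with Cela2a, and 0.18 for the 900 after those, with Klk1, Cela1 and Ctrl. Dimmer probes, with both of Ctrc, had 0.29. The brightest spike-in control, RNA added at a fixed amount, read 313737 to 331731 on the 6 arrays, beside 304910 to 328264 for Ctrb1. Whether these signals were near the top of the range in which they follow RNA amount was not tested.

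**Figure D3:**
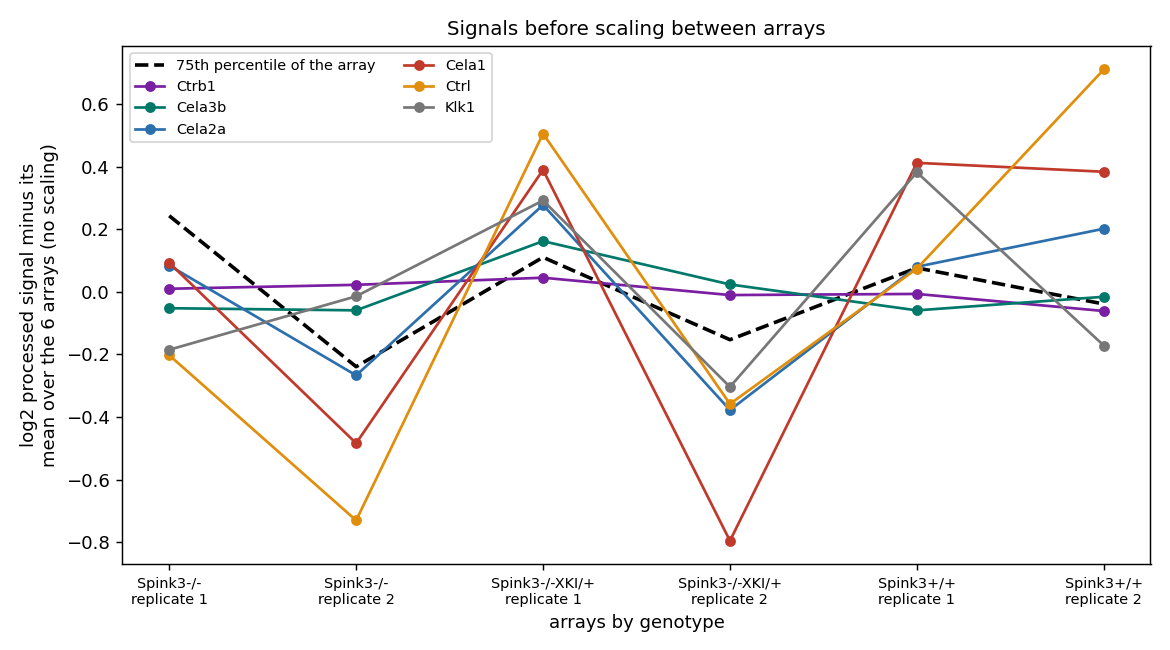
The log2 processed signal minus its mean over the 6 arrays is drawn without scaling (y axis) for the arrays by genotype (x axis), with a coloured line per gene and a dashed line for the 75th percentile of the array. Ctrb1 and Cela3b stay nearly flat (ranges of 0.11 and 0.22) while the percentile spans 0.48, and Ctrl, Cela1 and Cela2a vary more.

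Set against other digestive enzymes of the same array, the members had unlike differences, none of which passed the test. Each level was taken relative to the median of 19 genes, namely 12 carboxypeptidases, lipases, amylases and other enzymes and 7 trypsinogens. On this scale 40.8% of all tested genes were higher in Spink3-/- than in Spink3+/+ without overlap, and 1.73% were lower. Ctrl differed by -0.56 in Spink3-/- against Spink3+/+, without overlap, and Cela1 by -0.29 with overlap. Ctrb1 and Cela3b were higher by 0.35 and 0.28 without overlap, beside 0.07 and -0.0013 on the scale of the 75th percentile. Cela2a stood at 0.07, where it was -0.22 on the other scale, so its sign depended on the scaling, as did those of Klk1 and Cela3b. In Spink3-/-XKI/+ against Spink3+/+, Cela1 was at -0.55 and Ctrc at -0.30, both lower without overlap, as were 11.4% of all tested genes, and Ctrl at -0.27 with overlap. In Spink3-/- against Spink3-/-XKI/+ only Cela2a did not overlap, at 0.21, being higher, as were 38.5% of all tested genes. By limma on this scale, adjusted p in Spink3-/- against Spink3+/+ was 0.735 for Ctrl, 0.769 for Ctrb1 and 0.781 for Cela3b. The median was the level of a single enzyme on each array. It was Prss1 in Spink3+/+, Cel in Spink3-/-, and Prss1 and Cpb1 in replicates 1 and 2 of Spink3-/-XKI/+. Unequal change of the members is thus not shown, and a ratio within an array cannot tell which gene moved.

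Ctrl, Cela1 and Cela2a, picked from all pairs of members after their values were seen, varied together over the 6 arrays. Pearson's r was 0.87 between Cela1 and Cela2a, 0.85 between Ctrl and Cela2a, and 0.73 between Ctrl and Cela1, as a description over 6 arrays that share genotypes and scaling. Under quantile normalization these were 0.96, 0.84 and 0.77, and under scaling to spike-in controls 0.93, 0.79 and 0.77. Ctrb1 and Cela3b had r = 0.91 with each other, but 0.31 under quantile normalization. Ctrb1 and Ctrl had r = -0.22, and -0.90 under quantile normalization. Ctrc had r = 0.77 with Klk1, 0.73 with Cela3b and 0.72 with Ctrb1, as high as Ctrl with Cela1 or nearly so. Under quantile normalization these were 0.72, 0.02 and -0.16.

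The 250 bases upstream of the start of Ctrl, Cela1 and Cela2a are shown because these 3 genes varied together; they come from RefSeq's promoter sequences for GRCm38.p6, in which 6 of the 7 genes matched. The sequences are written 5′ to 3′ along the gene and all lie on the minus strand, at chr8:105933863-105934112 for Ctrl, chr15:100687921-100688170 for Cela1 and chr4:141826006-141826255 for Cela2a. Capitals mark matches to the E-box CANNTG, where N is any base.
Ctrl: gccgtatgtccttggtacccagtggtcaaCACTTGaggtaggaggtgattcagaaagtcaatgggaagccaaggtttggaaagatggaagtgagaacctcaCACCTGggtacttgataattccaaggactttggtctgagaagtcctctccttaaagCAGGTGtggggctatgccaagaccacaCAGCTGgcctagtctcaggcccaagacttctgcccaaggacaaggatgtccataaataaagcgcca
Cela1: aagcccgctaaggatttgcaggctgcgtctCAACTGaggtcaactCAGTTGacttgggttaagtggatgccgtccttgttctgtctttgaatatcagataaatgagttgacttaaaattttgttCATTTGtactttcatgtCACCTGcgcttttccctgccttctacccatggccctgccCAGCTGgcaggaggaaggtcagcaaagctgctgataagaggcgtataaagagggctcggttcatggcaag
Cela2a: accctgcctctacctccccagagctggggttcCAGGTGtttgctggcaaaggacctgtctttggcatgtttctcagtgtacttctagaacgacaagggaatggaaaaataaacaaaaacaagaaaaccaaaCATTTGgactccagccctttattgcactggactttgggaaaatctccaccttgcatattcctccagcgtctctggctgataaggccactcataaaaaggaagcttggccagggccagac

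All 6 members with an upstream sequence held an E-box in these 250 bases on either strand, as did 66.2% of 32851 mouse promoters. Ctrb1 had 1 match, Ctrl 4, Cela1 5, Cela2a 2, Cela3b 4 and Klk1 2. The form CACCTG, which lies within CANNTG and was searched after the other motifs had been seen, was in 5 of the 6 sequences, beside 17.2% of all promoters, and Ctrb1 lacked it in this window. TGGGAA, the letters of the Rbpj box, stood in Ctrb1, Ctrl, Cela2a and Klk1 and in 21.6% of all promoters. AAGGTCA, the letters that Nr5a2 binds, stood in Cela1 and Klk1 and in 4.08% of all promoters. These are matches of letters and not binding sites.

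Klk1, the tissue kallikrein that frees kinins from kininogens, gave 7.75 and 8.40 in Spink3-/-, 8.36 and 8.03 in Spink3-/-XKI/+, and 8.48 and 8.04 in Spink3+/+ pancreas. All 3 genotypes overlapped. Differences from Spink3+/+ were -0.19 (SE 0.29, interval -0.89 to 0.52) in Spink3-/- and -0.07 (SE 0.29, interval -0.77 to 0.63) in Spink3-/-XKI/+. Of 25 other kallikrein genes 16 were tested, and none passed the test in any of the 3 comparisons; their medians were -0.08, 0.0054 and -0.12 in the order given above.

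The array pattern of Klk1 was shared by several Klk1b genes, a mouse family of near copies on the same chromosome. Klk1b21 and Klk1b8 each had r = 0.997 with Klk1 over 6 arrays, Klk1b3 0.995, Klk1b4 0.982, Klk1b22 0.966, Klk1b24 0.951 and Klk1b5 0.900. Under quantile normalization these 7 values lay between 0.909 and 0.995. These 7 genes were picked for an r of 0.900 or more after their values were seen. A lowest array shared with Klk1 therefore follows in part from that choice. Klk1b26 had r = 0.84, Klk1b27 0.75, Klk1b11 0.65 and Klk1b16 0.60, and the last 3 were lowest in replicate 2 of Spink3+/+. Replicate 1 of Spink3-/- was the lowest array for all 8 genes, Klk1 included, on this scale and under quantile normalization. Klk1b21 had 4.59 there beside 5.31 in replicate 2. Under scaling to spike-in controls it was the lowest for none of the 8: replicate 2 of Spink3+/+ was the lowest for 5 and replicate 2 of Spink3-/-XKI/+ for 3. Without scaling it was again the lowest for none. Klk1b9 had r = 0.49 and the widest range of the family, with levels of -1.43 and 0.67 in Spink3-/-, -2.31 and -1.79 in Spink3-/-XKI/+, and 0.15 and -1.08 in Spink3+/+. Its difference was 1.67 (SE 0.73) in Spink3-/- against Spink3-/-XKI/+, with an adjusted p of 0.699 by limma. How far the probes of this family read each other's RNA was not tested.

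Other secretory genes of the acinar cell give the setting. None of 7 trypsinogens passed the test, with medians of -0.16, 0.06 and -0.39 in Spink3-/- against Spink3+/+, Spink3-/-XKI/+ against Spink3+/+, and Spink3-/- against Spink3-/-XKI/+; of them 2210010C04Rik was at -0.56 and Gm5409 at -0.49 in the last. None of 12 other digestive enzymes passed, with medians of -0.07, -0.0090 and -0.0083. The lipase Pnlip differed by -1.41, 1.09 and -2.50 in the 3 comparisons (adjusted p = 0.238 by limma in the last) and the phospholipase Pla2g1b by -0.60, 0.58 and -1.18. Both were thus lower in Spink3-/- and higher in Spink3-/-XKI/+ than in wild type, an order that none of the 7 members showed beyond the spread of its arrays.

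None of 11 zymogen granule genes passed the test, with medians of -0.07, -0.07 and 0.04. The granule membrane protein Gp2 stood at -0.42, 0.91 and -1.33 and the granule GTPase Rab3d at -0.01, -0.38 and 0.37. None of 10 acinar transcription factors passed either, with medians of -0.12, -0.11 and -0.13, Ptf1a being at -0.55 in Spink3-/- against Spink3-/-XKI/+.

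The list of inhibitors of chymotrypsin-like and elastase-like proteases had 16 tested genes. Among them was Spink3, the gene of a trypsin inhibitor, which both Spink3-deficient genotypes lack by design. Of the 16, Spink3 alone passed the test, so no other gene of the list did. Spink3 fell in both, with differences from Spink3+/+ of -6.95 (SE 0.23, adjusted p = 0.00101 by limma) in Spink3-/- and -7.56 (SE 0.23, adjusted p = 0.000602 by limma) in Spink3-/-XKI/+. The median of the 16 was 0.45, -0.05 and 0.42 in the 3 comparisons. Serpina1e, of the alpha-1 antitrypsin family that blocks elastases, had levels of 4.21 and 4.33 in Spink3-/-, 1.49 and 2.50 in Spink3-/-XKI/+, and 2.06 and 2.07 in Spink3+/+ pancreas. Its difference in Spink3-/- against Spink3-/-XKI/+ was 2.27 (adjusted p = 0.242 by limma), and that of Serpina1a was 2.22. The liver markers given next were higher on both Spink3-/- arrays than in Spink3+/+, with Afp at 3.33 and 2.24 in Spink3-/-, 0.32 and 2.18 in Spink3-/-XKI/+, and 0.32 and 0.64 in Spink3+/+; their part in the values of the inhibitors was not tested.

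Markers of other tissue and cells varied on the same arrays. Against Spink3+/+, 16.1% of all tested genes were higher and 16.6% lower in Spink3-/- without overlap. In Spink3-/-XKI/+ these shares were 25.9% and 16.2%. All 10 liver markers were higher in Spink3-/- than in Spink3+/+ without overlap, and their summed signal was 59.0 and 47.2 times the 75th percentile in Spink3-/-, 31.8 and 43.2 in Spink3-/-XKI/+, and 29.7 and 32.3 in Spink3+/+. All 10 were above background on both Spink3-/- arrays, and none of the 10 passed the test. Of 10 macrophage markers 9 were higher without overlap, with sums of 150 and 161 in Spink3-/-, 163 and 169 in Spink3-/-XKI/+, and 133 and 135 in Spink3+/+. Of 9 tested neutrophil markers 6 were lower without overlap, with sums of 80.4 and 104 in Spink3-/-, 103 and 102 in Spink3-/-XKI/+, and 121 and 174 in Spink3+/+. Of 6 tested erythroid markers 2 were lower without overlap (5 in Spink3-/-XKI/+ against Spink3+/+), and their mean log2 level was 3.23 and 3.05 in Spink3-/-, 3.07 and 2.94 in Spink3-/-XKI/+, and 4.10 and 3.49 in Spink3+/+. In Spink3-/-XKI/+ against Spink3+/+, 2 of 10 liver and 8 of 10 macrophage markers were higher without overlap, and 7 of 9 neutrophil markers were lower. No macrophage, neutrophil or erythroid marker passed the test in these 2 comparisons. Markers of duct, endocrine, endothelial, fibroblast, mast and intestinal cells were also read, and none passed. Of 9 tested endothelial markers 5 were lower and 1 higher in Spink3-/- than in Spink3+/+ without overlap. The part of all these cells in the values of the proteases was not tested.

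By the mean correlation with all 7 members over the 6 arrays, the most alike of 7355 other genes were BC018473 (mean r = 0.657), Tbc1d10c (0.643), Mcoln3 (0.642), Zim3 (0.641) and Adgrg3 (0.637). All 5 were dim, and all had their lowest level on this scale in replicate 1 of Spink3-/-, with -1.54 for BC018473 there beside -0.96 in replicate 2. No gene among them had a mean r above 0.657. The mean hides unlike members: BC018473 had r = 0.94 with Ctrc and 0.40 with Cela1, Mcoln3 0.97 and 0.39, and Adgrg3 0.85 and 0.63. Ctrl, Cela1 and Cela2a did not have their lowest level in replicate 1 of Spink3-/-.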

How the data were processed

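Per the file headers, the deposited intensity values are linear processed signals (Agilent Feature Extraction 10.7.3.1), background-subtracted and detrended, with no step between arrays and mm9 for annotation. The flags for spots above background, saturated or outlying, with their score of 0 or 1, are from the same deposited files. The deposited value table of the whole series repeats these intensities exactly for all 62976 spots, linear and uncentred, with medians of 19.9 and 15.2 in Spink3-/-, 18.5 and 15.8 in Spink3-/-XKI/+, and 18.8 and 15.5 in Spink3+/+.

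Outlier spots were left out, spots of a probe were averaged, and log2 signals were set relative to the 75th percentile of each array, taken without control spots. A probe entered if both arrays of any genotype had it above background, and a gene was read by its brightest probe. The 3 genotypes were taken from the labels and compared with limma 3.58.1 in R 4.3.3 on all 6 arrays (3 residual degrees of freedom, two-sided, Benjamini-Hochberg over 14024 genes, called under 0.05). The number of arrays limits the precision.

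The 6 arrays share 1 slide and 1 scan and lie in 2 rows of it: both Spink3+/+ arrays and 1 of Spink3-/- in row 1, the other 3 in row 2, so row and genotype cannot be told apart between Spink3-/-XKI/+ and Spink3+/+. Replicate numbers were not used to pair the samples in the reported fit, and the labels do not say whether they mark pairs. Members and gene lists were chosen with earlier results of these data known. Named were all members, Spink3, called genes or the 2 largest differences of each list, and the 5 genes most like the members. A gene that this rule names is not reported here. Alternatives changed the background correction, scaling, probe choice, filter, arrays, replicate block and slide row. Probes were named through RefSeq's GRCm38.p6 table. Figures used matplotlib 3.10.9 in Python 3.11.15.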

Additional observations from a re-analysis of the deposited data

How the results depend on the processing

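No member was called under any of 20 settings in any comparison. Ctrl in Spink3-/- against Spink3+/+ (-1.22 to -0.47) and against Spink3-/-XKI/+, Cela1 against Spink3+/+ in both genotypes, and Ctrc in Spink3-/-XKI/+ against Spink3+/+ stayed negative in all 20. Of the members' values 186 equal the reported ones, where the setting leaves the difference as it is by construction (the replicate block, for example); of the others 187 kept their sign and 47 changed it, and the cause was not tested.

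The order below is Spink3-/- against Spink3+/+, Spink3-/-XKI/+ against Spink3+/+, and Spink3-/- against Spink3-/-XKI/+, named the first, the second and the third. Scaling to the other digestive enzymes, chosen after seeing the data, turned Cela2a to 0.068, Cela3b to 0.28 and Klk1 to 0.10 in the first, and Cela1 to 0.26, Cela2a to 0.21, Cela3b to 0.11, Ctrb1 to 0.25, Ctrc to 0.049 and Klk1 to 0.16 in the third. No scaling, also chosen after seeing the data, turned Cela1 to 0.0074 in the third. Spike-in scaling, which moved the median of all genes to 0.11 in the first, turned Cela3b to 0.11 there, and Cela1 to 0.049, Cela2a to 0.00048 and Ctrb1 to 0.041 in the third. Quantile normalization turned Cela3b to 0.0076 in the first and Ctrb1 to 0.031 in the third, and normexp turned Cela3b to 0.028 in the first. The slide row as a block turned Ctrb1 to -0.18 in the first, Cela3b to -0.31 and Ctrb1 to -0.40 in the second, and Cela2a to 0.00096, Cela3b to 0.066, Ctrb1 to 0.22, Ctrc to 0.61 and Klk1 to 0.21 in the third. With the same sign it moved Ctrc to -1.37 and Klk1 to -0.51 in the first, and Ctrc to -1.99 and Klk1 to -0.72 in the second, where row and genotype cannot be told apart.

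Leaving out 1 array at a time gave, in the first, Cela3b -0.24 to 0.24, Ctrb1 -0.18 to 0.31, Ctrc -1.37 to 0.31 and Klk1 -0.51 to 0.14. In the second it gave Cela2a -0.35 to 0.045, Ctrb1 -0.012 to 0.20, Ctrl -0.65 to 0.10 and Klk1 -0.29 to 0.15. In the third it gave Cela1 -0.48 to 0.45, Cela2a -0.26 to 0.13, Cela3b -0.41 to 0.066, Ctrb1 -0.27 to 0.22, Ctrc -1.07 to 0.61 and Klk1 -0.44 to 0.21. Such a fit assumes that a lone array varies like the other groups. The members' median in the first ran from -0.51 to 0.14, the highest value without replicate 1 of Spink3-/-, in the second from -0.35 to 0.02 and in the third from -0.41 to 0.066.

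The counts of called genes, 5, 1 and 1 as reported, moved as follows. With every probe tested they were 11, 2 and 0, and with the mean of a gene's probes 2 in the first. With no filter they were 1 in the first and 0 in the third, likewise with probes above background on every array. With normexp they were 1, 2 and 0, with quantile normalization 3 in the second and 4 in the third. With only the arrays compared they were 11 in the first and 0 in the third. Scaling to the median gave 3, and spike-in scaling 2, in the third, and the slide row as a block 1, 0 and 3. The replicate block gave 1 in the first and 0 in the third and left the members' differences as they were. Same-numbered arrays deviated with r = -0.06, 0.03 and 0.20. In every genotype the 75th percentile was higher in replicate 1 than in replicate 2. With 2 arrays a genotype, these values cannot decide whether the numbers pair the samples. Leaving out 1 array gave 1 to 292, 1 to 299 and 0 to 294.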

Other observations

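Taken singly, some members had close partners over the 6 arrays, picked out of 7355 genes after their values were seen. The closest to Ctrc was Gas2l3 (r = 0.992). Next came Nr5a2, the nuclear receptor of acinar cells, with r = 0.989. Levels of Nr5a2 were 4.23 and 4.83 in Spink3-/-, 4.61 and 4.58 in Spink3-/-XKI/+, and 4.77 and 4.76 in Spink3+/+ pancreas. Like Ctrc, it was lowest in replicate 1 of Spink3-/-. These correlations were not computed under other scalings. Cela1 had r = 0.998 with Txnip, which binds thioredoxin.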
